A study of Mus musculus with 2 samples.

Results

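Cells of NPCTKO glioblastoma (GBM) were examined for 30 genes of sterol metabolism. The set comprised 19 enzymes that lead from acetyl-CoA to cholesterol, 5 regulators of the SREBP2 system, and 6 genes of sterol transport, export and storage. They were chosen from pathway knowledge with levels of some of them in these libraries already known, so counts over the set describe these libraries and are not independent evidence. All 30 were found among the 27998 mouse genes of the deposited matrices. The material was 2 brain tumors, 1 library each (tumor 1 and tumor 2), from C57BL/6 mice aged 3 months. Neural progenitors of embryos had been electroporated in utero with piggyBac plasmids carrying Cas9, luciferase, a fluorescent lineage label (EGFP or DsRed) and guides against tumor suppressors, Trp53 and Nf1 among them. Hosts carried Tek-Cre;Ai14 or Tbx18CreERT2/+;Ai14, drivers used to mark endothelial or mural cells, and the labels do not tell which host gave which library. The cells had been sorted, no tumor-free brain was analysed here, and every class below comes from tumor tissue.

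Cholesterol is made in the endoplasmic reticulum through the mevalonate, squalene and post-squalene segments of a single long pathway. When membrane sterol is low, SCAP escorts SREBP2 to the Golgi for cleavage, and the released factor switches on nearly all enzymes of the pathway. When sterol is high, INSIG proteins hold the complex back, and oxysterols act through LXR to raise the exporters ABCA1 and ABCG1. Brain receives almost no cholesterol from blood. Its astrocytes and oligodendrocytes are the main makers, while microglia and infiltrating phagocytes handle much sterol that they take up.

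The libraries held 14302 and 18596 barcodes with 282961884 and 295366782 UMIs, and 12850 and 15507 barcodes passed filters. There were 51 barcode sequences that occurred in both. Cells were assigned by raw markers to 7 classes, namely EGFP-high glioma (8118 and 8666 cells in tumors 1 and 2), astrocyte-like cells (813 and 85), oligodendrocytes (161 and 93), microglia (462 and 277), monocytes (38 and 853), T cells (262 and 526) and vascular cells (58 and 50). Median depth per glioma cell was 18498.5 and 9967 UMIs. Markers that no gate had used were checked in each class. Microglial check genes summed to 155 and 148 UMIs per 10,000 in microglia, and oligodendrocyte genes to 153 and 198 in oligodendrocytes. In astrocyte-like cells astrocyte genes summed to 19.9 and 17 and the vascular check genes to 20.4 and 15.4. Monocytes were less well separated, with 12.8 and 17.7 for their own list and 41.4 and 18.8 for the microglial list, which exceeded it in both tumors, and the monocyte list reached 16.8 and 6.16 in vascular cells. Glioma check genes (Sox2, Olig2, Nes, Pdgfra and Cspg4) summed to 10.9 and 7.01 in glioma and 7.65 and 4.86 in astrocyte-like cells. In glioma the vascular check genes summed to 8.58 and 11.8, above the glioma list in tumor 2, against 112 and 107 in vascular cells. Oligodendrocyte check genes summed to 5.95 and 6.88 in glioma. EGFP was 55.6% and 77.3% of its glioma level in astrocyte-like cells and 55.3% and 58.1% in oligodendrocytes. These 2 classes had no EGFP limit. Their median EGFP was 33.4 and 31.7 UMIs per 10,000 in astrocyte-like cells and 31.1 and 25.2 in oligodendrocytes. Most of their cells thus passed the limit of 20 used for glioma. In immune and vascular cells EGFP lay between 3.78% and 6.24% of the glioma level. These classes exclude barcodes with 20 or more EGFP UMIs per 10,000, so their EGFP cannot measure carried glioma RNA. Of the check genes, Sox2 lay between 7.39% and 18.2% of the glioma level, Pdgfra between 9.52% and 23.7% and Olig2 between 5.48% and 17.4%. Nes and Cspg4 lay between 9.47% and 24.9% in immune cells. In vascular cells of tumors 1 and 2, Nes was at 240% and 196% and Cspg4 at 39.2% and 136%. These values include any glioma RNA carried by other barcodes. The part of such RNA in the values below was not tested.

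Promoter windows (250 bases before to 50 after the start site, RefSeq, GRCm38.p6) existed for 24 of the 30 genes, and none was given for Fdps, Fdft1, Sqle, Stard4, Abcg1 and Npc1. Searched on both strands were TCACNCCAC, a core of the sterol response element, and CCAAT, the box bound by NF-Y, a partner of SREBP2. The former stood in 1.24% of all 32851 windows and, among the sterol genes, only in that of Hmgcs1, the synthase of HMG-CoA. The latter stood in a window of 41.1% of 27025 genes, of 15 of 16 enzymes, of 4 of 5 regulators and of 2 of 3 transport genes. A match describes letters and is not a bound site. The 150 bases upstream of the start are shown for 4 enzymes that varied together among glioma cells (below) and for the exporter Abca1, which did not rise with them, and capitals mark matches to either pattern on either strand. The stretches lie at chr13:119690201-119690350 (Hmgcs1), chr5:114444119-114444268 (Mvk) and chr13:8885456-8885605 (Idi1) on the plus strand, and at chr8:64733579-64733728 (Msmo1) and chr4:53159896-53160045 (Abca1) on the minus strand.
Hmgcs1: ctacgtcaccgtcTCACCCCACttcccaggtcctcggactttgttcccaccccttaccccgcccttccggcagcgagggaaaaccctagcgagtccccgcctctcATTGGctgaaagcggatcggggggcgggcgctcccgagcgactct
Mvk: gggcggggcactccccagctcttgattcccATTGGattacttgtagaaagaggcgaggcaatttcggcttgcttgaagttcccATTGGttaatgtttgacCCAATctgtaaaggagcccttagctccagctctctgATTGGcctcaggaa
Idi1: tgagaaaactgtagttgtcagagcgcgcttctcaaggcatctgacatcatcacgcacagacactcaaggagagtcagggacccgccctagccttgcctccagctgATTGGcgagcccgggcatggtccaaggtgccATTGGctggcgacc
Msmo1: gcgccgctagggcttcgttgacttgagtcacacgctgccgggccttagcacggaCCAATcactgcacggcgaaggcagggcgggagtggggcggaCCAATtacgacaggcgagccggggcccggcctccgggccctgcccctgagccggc
Abca1: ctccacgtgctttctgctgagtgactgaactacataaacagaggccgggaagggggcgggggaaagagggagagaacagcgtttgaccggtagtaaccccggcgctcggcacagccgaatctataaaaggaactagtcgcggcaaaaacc
In the Hmgcs1 stretch TCACNCCAC began 137 bases before the start site and CCAAT 45 bases before it. Mvk, the mevalonate kinase, had CCAAT matches beginning 120, 67, 50 and 14 bases before its start. Idi1, which isomerizes the isoprenoid building block, had them at 45 and 14 bases, and Msmo1, a methyl sterol oxidase, at 96 and 55. The stretch of Abca1 held neither pattern. These stretches do not stand for the whole set. CCAAT also stood in the windows of Ebp (2 matches), Ggps1 (3), Npc2 (2) and Soat1 (1), which did not rise with the enzymes in both tumors. Acat2, which did rise with them, had 0 matches to either pattern.

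The enzymes as a sum were highest in astrocyte-like cells, close together in glioma and oligodendrocytes, and lowest in microglia. In glioma the 19 enzymes summed to 8.05 and 15.7 UMIs per 10,000 in tumors 1 and 2. The sum was 10.6 and 28.2 in astrocyte-like cells and 7.63 and 15 in oligodendrocytes. It was 4.48 and 6.01 in vascular cells, 3.98 and 5.44 in monocytes, 3.34 and 5.63 in T cells and 2.91 and 3.91 in microglia. All values of the 3 neural classes exceeded all values of the 4 others, while monocytes and T cells changed places between tumors. These levels are shares of all UMIs. On that scale the median of all genes was also higher in glioma, by a log2 of 0.92 against microglia and 0.95 against monocytes. It was higher by 0.65 against T cells and 0.36 against vascular cells, so the separation of the sums includes that shift. These are 3' tag counts with no scaling for length, so a gene is compared only with itself.

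**Figure D1:**
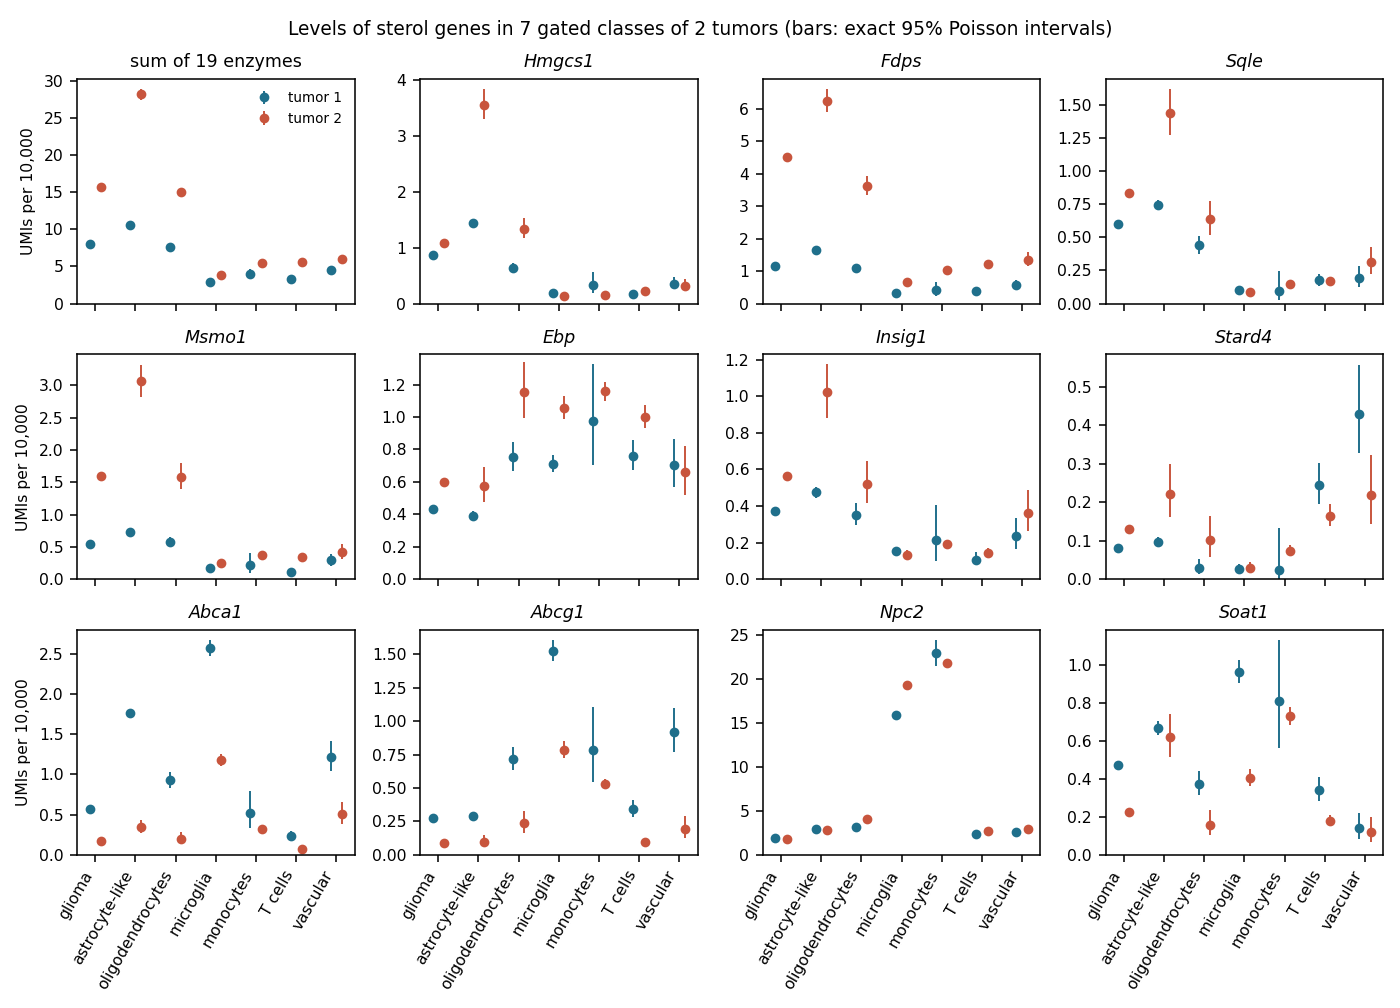
UMIs per 10,000 (y axis, linear, from 0) of the enzyme sum and 11 sterol genes in 7 marker-gated classes (x axis), tumor 1 in blue and tumor 2 in red, with exact 95% Poisson intervals that cover counting error only. The enzyme sum is highest in astrocyte-like cells (10.6 and 28.2) and lowest in microglia (2.91 and 3.91), whereas Npc2 peaks in monocytes (22.9 and 21.8).

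Against microglia, glioma cells had higher levels of 14 of the 30 genes and lower levels of 6, in the quasi-likelihood test of edgeR on sums per class and tumor with the tumor as a block. These are 46.7% and 20% of the set, where 23.7% and 23.1% of the 14442 genes tested were called higher and lower at an adjusted p under 0.05. Among the enzymes 12 were higher and only Ebp was lower. Sqle, the squalene epoxidase and a rate-limiting step, measured 0.599 and 0.834 UMIs per 10,000 in glioma of tumors 1 and 2 against 0.101 and 0.0875 in microglia. The groups did not overlap, and the log2 difference was 2.04 ± 0.29 (SE; edgeR adjusted p = 8.89e-05). Log2 differences here carry the TMM factors of the fit, which center most genes near 0, and so are not the ratios of the UMIs per 10,000 beside them. The factors shifted them by -0.83 and -0.84 in tumors 1 and 2 against microglia, -0.57 and -0.85 against monocytes, -0.66 and -0.63 against T cells, -0.29 and -0.26 against vascular cells, -0.07 and -0.07 against astrocyte-like cells and -0.03 and -0.17 against oligodendrocytes. Without them the median of all genes was 0.92 against microglia, 0.95 against monocytes, 0.65 against T cells and 0.36 against vascular cells, so higher and lower are relative to that shift. In this comparison 22 members were higher with no TMM factors and 5 lower, beside 54.6% and 12.6% of all genes. Idi1 stood at 0.558 and 0.943 against 0.112 and 0.0766 (1.99 ± 0.39, adjusted p = 0.000947). Fdft1, the squalene synthase and first step committed to sterols, stood at 0.292 and 0.567 against 0.0672 and 0.0571 (1.83 ± 0.37, adjusted p = 0.00124). Both were without overlap as well. Acat2, the thiolase that opens the pathway, differed by 1.77 ± 0.32 and Hmgcs1 by 1.67 ± 0.41. Cyp51, the lanosterol demethylase, differed by 1.47, Fdps, which makes farnesyl diphosphate, by 1.46, Lss, which closes the sterol rings, by 1.35, Msmo1 by 1.30, Sc5d, a desaturase of the last steps, by 1.29, Hsd17b7, a sterol ketone reductase, by 1.26 and Mvd, which ends the mevalonate segment, by 1.01. The test was not passed by Mvk (0.76), Nsdhl (0.56), Pmvk (0.50), Dhcr7 (0.49), Tm7sf2 (-0.22) and Ggps1 (-0.20), the last of which feeds protein prenylation rather than sterols. Without the tumor block the calls were 5 higher and 5 lower, beside 1212 and 1908 of all 14442 genes. In that fit 16 members had an unadjusted p under 0.05. No count over all genes was made at an unadjusted p, here or below.

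Ebp, the isomerase that shifts the ring double bond, ran against the other enzymes. Its level in glioma was 0.430 and 0.597 UMIs per 10,000. It was 0.712 and 1.06 in microglia, 0.978 and 1.16 in monocytes, 0.762 and 1.00 in T cells, 0.706 and 0.659 in vascular cells and 0.751 and 1.16 in oligodendrocytes, all above both glioma values. The log2 difference was -1.62 ± 0.22 against microglia (edgeR adjusted p = 6.99e-05) and -1.79 ± 0.23 against monocytes. It was -1.43 ± 0.22 against T cells, -0.98 ± 0.22 against oligodendrocytes and -0.73 ± 0.23 against vascular cells, and all 5 passed. The last was lost without the cells with most UMIs (adjusted p = 0.11), with no filter on low counts (0.205), and with no TMM factors (0.118). Astrocyte-like cells (0.392 and 0.575) gave 0.02 ± 0.22, which did not pass. All these comparisons share the same 2 glioma sums.

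Against monocytes, 12 genes were higher in glioma and 6 lower (40% and 20% of the set), beside 21% and 22% of all genes. The higher ones were all enzymes. Idi1 differed by 1.98 ± 0.45, Sqle by 1.69 ± 0.33, Acat2 by 1.66 ± 0.39 and Hsd17b7 by 1.66 ± 0.39. Msmo1 measured 0.537 and 1.60 in glioma against 0.215 and 0.376 in monocytes, without overlap (1.07 ± 0.37, edgeR adjusted p = 0.0337). Nsdhl, which acts with Msmo1 in ring demethylation, differed by 1.11 ± 0.42 (adjusted p = 0.0468), which DESeq2 did not call (0.0859). In this comparison 20 members were higher with no TMM factors and 4 lower, beside 48.6% and 13% of all genes. The monocytes of tumor 1 were only 38 cells. Without the tumor block the calls were 0 higher and 4 lower, beside 924 and 1833 of all 14442 genes, with 12 members at an unadjusted p under 0.05. DESeq2, with the block, called 11 higher, beside 3271 of all genes.

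Against T cells, 11 genes were higher and 3 lower (36.7% and 10%), beside 21.4% and 21.1% of all genes. Hmgcs1 measured 0.864 and 1.08 in glioma against 0.163 and 0.233 in T cells, without overlap (1.66 ± 0.42, edgeR adjusted p = 0.00634). Msmo1 differed by 1.58 ± 0.34, Mvd by 1.45 ± 0.34 and Dhcr7, a reductase of the last step, by 1.40 ± 0.37. Pmvk, the second kinase of the mevalonate segment, differed by 0.79 ± 0.27 (adjusted p = 0.0301). Idi1, among the largest differences against myeloid cells, was at 0.51 ± 0.37 and did not pass. The enzyme sum of T cells was 41.6% and 35.8% of the glioma level, where Sox2 was 9.50% and 17.1% and Pdgfra 10.8% and 12.2%. In this comparison 22 members were higher with no TMM factors and 2 lower, beside 41.7% and 11.1% of all genes. Without the tumor block the calls were 0 higher and 1 lower, beside 1080 and 1435 of all 14442 genes, with 9 members at an unadjusted p under 0.05. DESeq2, with the block, called 11 higher, beside 3099 of all genes.

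Against vascular cells, 10 genes were higher and 5 lower (33.3% and 16.7%), beside 13.9% and 18.2% of all genes. Acat2 stood at 0.413 and 0.449 in glioma against 0.0743 and 0.101 in vascular cells, without overlap (2.03 ± 0.40, edgeR adjusted p = 0.00168). Lss differed by 1.68 ± 0.59, Cyp51 by 1.63 ± 0.28 and Dhcr7 by 1.42 ± 0.44. DESeq2 did not call Lss (adjusted p = 0.0616), Hmgcs1 (0.0818) or Hsd17b7 (0.0839), which edgeR had called. Tm7sf2, a sterol reductase, had 0 UMIs in the vascular cells of tumor 1 (exact 95% upper limit 0.0274 per 10,000) and did not pass (adjusted p = 0.0652). In this comparison 14 members were higher with no TMM factors and 4 lower, beside 21.8% and 14.7% of all genes. Without the tumor block the calls were 1 higher and 0 lower, beside 630 and 1499 of all 14442 genes, with 11 members at an unadjusted p under 0.05. DESeq2, with the block, called 8 higher and 5 lower, beside 1862 and 2858 of all genes.

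Against the glial classes, most cells of which also passed the EGFP limit of glioma, no enzyme was higher in glioma. Against astrocyte-like cells 0 genes of the set were higher and 5 lower, where 2.98% and 6.04% of all genes were called. At an unadjusted p under 0.05 18 members differed, and DESeq2 called 0 higher and 9 lower, beside 581 and 1072 of all 14442 genes. The median log2 difference of the enzymes was -0.74, against -0.01 over all genes. Hmgcs1 measured 1.45 and 3.56 in astrocyte-like cells against 0.864 and 1.08 in glioma (-1.37 ± 0.40, edgeR adjusted p = 0.0482). Tm7sf2 measured 0.0583 and 0.192 against 0.0224 and 0.0377 (-1.93 ± 0.40, adjusted p = 0.00994). Srebf1, whose SREBP1 products mainly drive fatty acid synthesis, measured 0.837 and 0.803 against 0.333 and 0.325 (-1.38 ± 0.28, adjusted p = 0.00905). In none of the 3 genes did the classes overlap, but Hmgcs1 did not pass with stricter gates (adjusted p = 0.0904), DESeq2 size factors (0.0527), with no TMM factors (0.0614), without the cells with most UMIs (0.0755) or in glioma cells with no UMI of 3 interferon genes (0.0868). Nsdhl (-1.10 ± 0.33), Mvk (-1.04 ± 0.34) and Cyp51 (-0.80 ± 0.24) had adjusted p of 0.0556, 0.0765 and 0.0555. Without the tumor block the calls were 0 higher and 0 lower, beside 1 and 61 of all 14442 genes, with 4 members at an unadjusted p under 0.05.

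Against oligodendrocytes 0 genes of the set were higher and 5 lower, beside 4.48% and 7.13% of all genes. At an unadjusted p under 0.05 7 members differed, and DESeq2 called 0 higher and 6 lower, beside 734 and 1298 of all 14442 genes. The median log2 difference of the enzymes was 0.01, against 0.13 over all genes. Besides Ebp, the enzyme called was Hsd17b7, at 0.368 and 0.477 in oligodendrocytes against 0.147 and 0.249 in glioma, without overlap (-1.22 ± 0.29, edgeR adjusted p = 0.0164), a call lost with stricter gates (adjusted p = 0.125) and in oligodendrocytes of low EGFP (0.12). Fdps stood at 1.10 and 3.62 against 1.16 and 4.52 (0.11 ± 0.24) and Msmo1 at 0.569 and 1.58 against 0.537 and 1.60 (-0.14 ± 0.32), neither of which passed. Without the tumor block the calls were 0 higher and 0 lower, beside 13 and 281 of all 14442 genes, with 3 members at an unadjusted p under 0.05.

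Few differences between classes passed among the 5 regulators. Insig1, a sterol sensor that is itself an SREBP2 target, measured 0.370 and 0.563 UMIs per 10,000 in glioma, 0.152 and 0.131 in microglia and 0.106 and 0.141 in T cells. Glioma lay above both, by 0.82 ± 0.28 against microglia (edgeR adjusted p = 0.0283) and 1.26 ± 0.29 against T cells (adjusted p = 0.0038). Srebf2, the gene of SREBP2, stood at 0.362 and 0.414 in glioma against 0.136 and 0.108 in microglia, without overlap (0.82 ± 0.26, adjusted p = 0.0218). Scap, the escort, had 0.290 and 0.125 in glioma and log2 differences between -0.31 and 0.17, and Insig2, the second sensor, had 0.291 and 0.220 and differences between -0.48 and 0.20. Neither passed in any comparison with TMM. With no TMM factors 4 of the 5 regulators were higher in glioma than in microglia, 5 than in monocytes and 4 than in T cells. In that setting 54.6%, 48.6% and 41.7% of all genes were higher too, so a higher level was common.

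Genes of transport, export and storage were mostly lower in glioma than in myeloid cells. Npc2, the soluble carrier that hands cholesterol out of lysosomes, measured 1.86 and 1.79 UMIs per 10,000 in glioma, 15.9 and 19.3 in microglia and 22.9 and 21.8 in monocytes. The log2 differences were -4.10 ± 0.20 (edgeR adjusted p = 5.5e-08) and -4.32 ± 0.21 (adjusted p = 8.43e-08). Npc2 was also lower in glioma than in the 4 other classes, with differences between -1.11 and -0.71, and was the only one of the 30 genes called in all 6 comparisons, though not without the cells with most UMIs in astrocyte-like (adjusted p = 0.0522) and vascular cells (0.0602). Abcg1, an exporter to lipoproteins, measured 1.53 and 0.786 in microglia against 0.276 and 0.0867 in glioma, without overlap (-3.67 ± 0.37, adjusted p = 3.82e-06). It was lower in glioma than in monocytes (-2.95), vascular cells (-1.85) and oligodendrocytes (-1.50) too. Abca1, which loads cholesterol onto apolipoproteins, measured 2.57 and 1.18 in microglia against 0.572 and 0.172 (-3.32 ± 0.35, adjusted p = 7.11e-06). It passed as lower against astrocyte-like cells, where it had 1.76 and 0.342 and the classes overlapped across tumors (-1.47 ± 0.34), and against vascular cells, where it had 1.22 and 0.507 and overlapped as well (-1.59). Against monocytes (0.525 and 0.321) the difference was -1.31, but in tumor 1 the level in glioma was the higher one, the classes overlapped, and with no TMM factors the call was lost (adjusted p = 0.157).

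Soat1, which esterifies cholesterol for storage, measured 0.964 and 0.406 in microglia and 0.811 and 0.730 in monocytes against 0.474 and 0.227 in glioma. The log2 differences were -1.78 ± 0.31 (edgeR adjusted p = 0.000446) and -2.05 ± 0.33 (adjusted p = 0.000278), and the microglial values overlapped those of glioma across tumors. Against vascular cells (0.141 and 0.118) it was the one transport gene higher in glioma (1.10 ± 0.39, adjusted p = 0.0441), a call lost without the cells with most UMIs (adjusted p = 0.0711). Npc1, the membrane partner of NPC2, measured 1.14 and 0.566 in oligodendrocytes against 0.371 and 0.269 in glioma, without overlap (-1.48 ± 0.30, adjusted p = 0.00561). It was at 0.450 and 0.303 in microglia (-1.07) and 0.334 and 0.379 in monocytes (-1.07), both overlapping glioma across tumors, and in tumor 1 glioma lay above monocytes. With no TMM factors neither call held (adjusted p = 0.472 and 0.373). Stard4, a cytosolic sterol carrier, was at 0.431 and 0.220 in vascular cells and 0.245 and 0.165 in T cells against 0.0799 and 0.129 in glioma. The log2 differences were -2.01 ± 0.51 (adjusted p = 0.00893) and -1.66 ± 0.48 (adjusted p = 0.0139), and the latter was lost with no TMM factors (adjusted p = 0.0835).

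**Figure D2:**
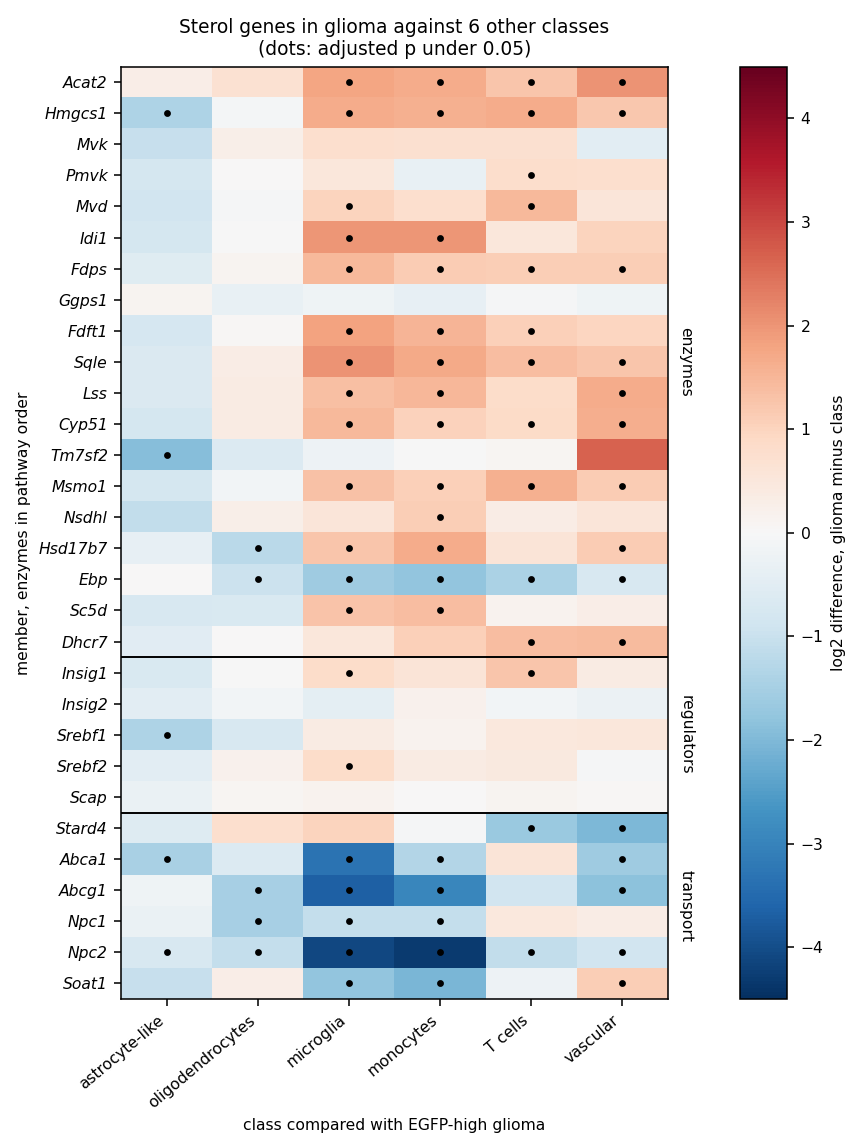
Log2 differences (color), glioma minus the class on the x axis, for the 30 sterol genes (y axis), with dots at an adjusted p under 0.05 in edgeR. Called enzymes other than Ebp are higher in glioma than in immune and vascular cells, and Npc2 reaches -4.32 against monocytes.

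Lists of related genes were read alongside. Of 11 genes of fatty acid synthesis, 7 were higher in glioma than in microglia, 8 than in monocytes, 7 than in T cells and 6 than in vascular cells, and none was lower in these 4. As shares these are 63.6%, 72.7%, 63.6% and 54.5%, beside 23.7%, 21%, 21.4% and 13.9% of all genes. Against microglia, Fads2, a fatty acid desaturase, differed by 2.57 ± 0.41, Me1, which supplies NADPH, by 2.28 ± 0.32, Elovl6, an elongase, by 2.10 ± 0.33 and Scd1, another desaturase, by 1.90 ± 0.28. Against astrocyte-like cells 7 of the 11 were lower in glioma and 0 higher, where 6.04% of all genes were lower, with Fads2 at -2.29 ± 0.32 (edgeR adjusted p = 0.000965) and Scd2 at -1.77 ± 0.23. Against oligodendrocytes Scd2 alone was called, at -1.47 ± 0.23. Of 20 further genes of sterol handling, 12 were lower and 2 higher in glioma than in microglia (60% and 10%, beside 23.1% and 23.7% of all genes), and 6 and 7 with no TMM factors. The largest differences were those of Apoe, the main apolipoprotein of brain (-4.79 ± 0.43), and Mylip, an LXR target that degrades lipoprotein receptors (-4.52 ± 0.33). Ch25h, which makes an oxysterol (-3.60 ± 0.53), and Lipa, the lysosomal lipase (-3.22 ± 0.56), followed. Against monocytes 9 were lower and 2 higher (45% and 10%, beside 22% and 21% of all genes). Against vascular cells 8 were lower and 4 higher (40% and 20%, beside 18.2% and 13.9%). Against T cells the counts of 4 lower and 5 higher (20% and 25%) lay near the 21.1% and 21.4% of all genes. Against the glial classes 3 were lower than in astrocyte-like cells and 2 than in oligodendrocytes, where 6.04% and 7.13% of all genes were. Nr1h3, which encodes an LXR, differed by -5.32 ± 0.41 from monocytes, and Vldlr, a lipoprotein receptor, by 3.23 ± 0.50 from vascular cells. Apoe was lower in glioma than in astrocyte-like cells, with a difference of -2.64 ± 0.39.

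The enzyme sum was higher in tumor 2 than in tumor 1 in all 7 classes. Each tumor is a single library, so the difference between them has no test, and the intervals here cover counting error only. The enzyme sum in glioma of tumor 2 was 1.95 times that of tumor 1 (exact 95% interval 1.94 to 1.97). The fold was 2.65 in astrocyte-like cells, 1.96 in oligodendrocytes, 1.68 in T cells, 1.37 in monocytes, 1.34 in microglia and 1.34 in vascular cells. In oligodendrocytes of low EGFP it was 3.02 (2.74 to 3.34). In glioma cells of at least 5000 UMIs, which evens out part of the difference in depth, the fold was 1.99. The median fold over all genes lay between 0.772 and 0.916. The median enzyme with at least 50 UMIs was at 1.66 in glioma, 2.32 in astrocyte-like cells and 1.64 in oligodendrocytes. It was at 1.43 in T cells, 1.41 in vascular cells and 1.14 in monocytes. The sum weights enzymes by their levels. It includes Fdps, whose fold in glioma was the largest and whose level is uncertain (below). In glioma 11 of 19 enzymes reached a fold of 1.5, where 14.4% of all genes did. So did 16 of 19 in astrocyte-like cells (12.8% of genes), 11 of 17 with at least 50 UMIs in oligodendrocytes (8.46%), 8 of 17 in T cells (13.5%) and 2 of 18 in microglia (11.1%). In vascular cells 4 of 10 did (12.7%). In monocytes 5 of 16 did (19.8%), and Acat2 (0.404), Hmgcs1 (0.479) and Dhcr7 (0.559) were at or below 1/1.5, as 29.5% of all genes were. Above 1 there lay 9 of 16. In microglia 11 of 18 lay above 1, with a median of 1.15 and the lowest folds at Hmgcs1 (0.683) and Idi1 (0.683).

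Fdps had the largest fold in glioma, 3.88 (3.82 to 3.95), from 1.16 and 4.52 UMIs per 10,000 in tumors 1 and 2. It was also above 1 in astrocyte-like cells (3.75), oligodendrocytes (3.28), T cells (3.13), monocytes (2.52), vascular cells (2.33) and microglia (2.09). Msmo1 followed in glioma at 2.97, Mvk at 2.31, Nsdhl at 2.30 and Fdft1 at 1.94. Mvd (1.78), Idi1 (1.69), Hsd17b7 (1.69), Tm7sf2 (1.68), Pmvk (1.66) and Cyp51 (1.59) completed those past 1.5. Below it lay Sqle (1.39), Ebp (1.39), Hmgcs1 (interval 1.22 to 1.28), Dhcr7 (1.24), Sc5d (1.23), Lss (1.20) and Acat2 (1.09), and Ggps1 was at 1.00 (0.952 to 1.05). In glioma cells with no UMI of the interferon genes Cxcl10, Ifi47 and Gbp2, which were shallower in tumor 2, Fdps was at 2.81, Acat2 fell below 1, at 0.809, and Ggps1 was at 0.995, which left 17 of 19 enzymes above 1.

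The exporters were lower in tumor 2. Abca1 was at 0.300 (0.286 to 0.315) in glioma and between 0.194 and 0.613 in the other classes. Abcg1 was at 0.314 in glioma and between 0.211 and 0.670 elsewhere. Scap was at 0.431 in glioma and Soat1 at 0.479, and with the exporters these were the members at or below 1/1.5, as 40.7% of all genes were, so a low fold was common. Stard4 (1.62) and Insig1 (1.52) were the genes other than enzymes past 1.5. Srebf2 was at 1.14, Insig2 at 0.757 and Npc1 at 0.724. Scaling by TMM multiplied the folds in glioma by 1.20 and turned Npc2 from 0.964 to 1.16 and Srebf1 from 0.975 to 1.17, while Abca1 and Abcg1 remained below 1 in glioma, at 0.362 and 0.378.

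**Figure D3:**
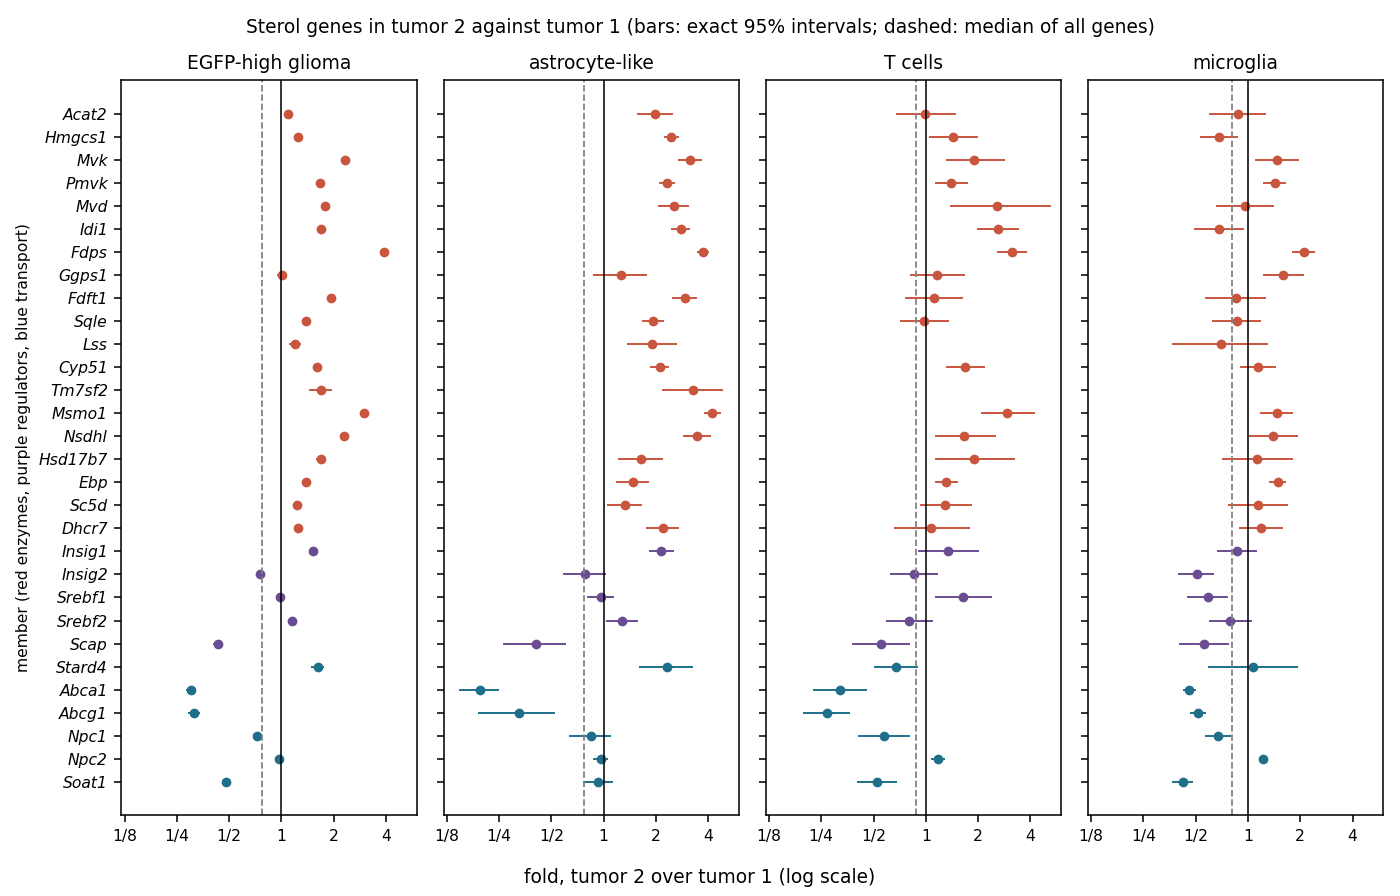
Fold of tumor 2 over tumor 1 (x axis, log scale) for each sterol gene (y axis) in glioma, astrocyte-like cells, T cells and microglia, with exact 95% intervals for counting error and a dashed line at the median of all genes. Enzymes are red, regulators purple and transport genes blue, and the folds in glioma run from 0.300 for Abca1 to 3.88 for Fdps.

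Within glioma, single cells differed in the enzyme program, and 16 of the 18 enzymes with at least 200 UMIs were higher, by 25% or more, at the enzyme-rich end in both tumors. Cells were thinned to 10000 UMIs, which left 6141 of 8118 cells in tumor 1 and 4328 of 8666 in tumor 2, and were ranked by the summed enzymes other than the gene read out. Cells of a tumor are not replicates, so folds of the top 20% of cells over the bottom 20% are descriptions. The enzyme sum had a median of 7 UMIs per cell in tumor 1 (5th to 95th percentile 2 to 20) and 12 in tumor 2 (4 to 43). Hmgcs1 went from 0.500 to 2.08 UMIs per 10,000 in tumor 1 and from 0.431 to 2.67 in tumor 2, folds of 4.17 and 6.18. Idi1 had folds of 4.01 and 8.31, Fdft1 of 3.97 and 7.75, Msmo1 of 5.73 and 5.43, Fdps of 3.43 and 6.11 and Cyp51 of 3.09 and 5.34. Sqle was at 2.93 and 4.32, Mvd at 2.83 and 4.31, Sc5d at 2.76 and 5.46, Nsdhl at 2.66 and 4.92, Hsd17b7 at 2.66 and 2.81 and Mvk at 2.22 and 2.46. Acat2 (2.15 and 4.26), Dhcr7 (2.03 and 3.41), Lss (1.89 and 5.68) and Pmvk (1.51 and 3.06) completed the group. A level at least 25% higher at the top was reached by 12.4% of other genes in tumor 1 and 21.1% in tumor 2. The median enzyme was at 2.71 and 4.62, and the median other gene at 1.04 and 1.01.

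Ebp and Ggps1 were the enzymes outside that group. Ebp went from 0.457 to 0.444 UMIs per 10,000 in tumor 1, a fold of 0.971 (exact 95% interval 0.862 to 1.09), and from 0.570 to 0.573 in tumor 2, a fold of 1.01 (0.886 to 1.14). Both intervals include 1. Ggps1 was at 0.887 (0.745 to 1.05) and 1.27 (1.03 to 1.57), and the latter fell short of 25% higher under all 5 alternatives run. Tm7sf2 had 80 and 87 UMIs in the compared cells, too few to be counted.

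Insig1, Srebf2 and Stard4 were higher at the enzyme-rich end in both tumors. Insig1 had folds of 2.61 and 4.05, Srebf2 of 2.23 and 1.84 and Stard4 of 4.27 and 2.88. Abca1 was lower at that end, at 0.771 (0.694 to 0.856) in tumor 1 and 0.466 (0.371 to 0.583) in tumor 2, where 7.97% and 19.1% of other genes were at least 20% lower. Soat1 was at 1.02 and 0.625, Srebf1 at 0.812 and 0.709 and Scap at 1.15 and 1.76. Insig2 (1.11 and 0.901), Npc1 (1.10 and 1.15) and Npc2 (0.940 and 1.01) lay nearer to 1. Abcg1 was at 0.927 in tumor 1 and had only 173 UMIs in tumor 2.

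**Figure D4:**
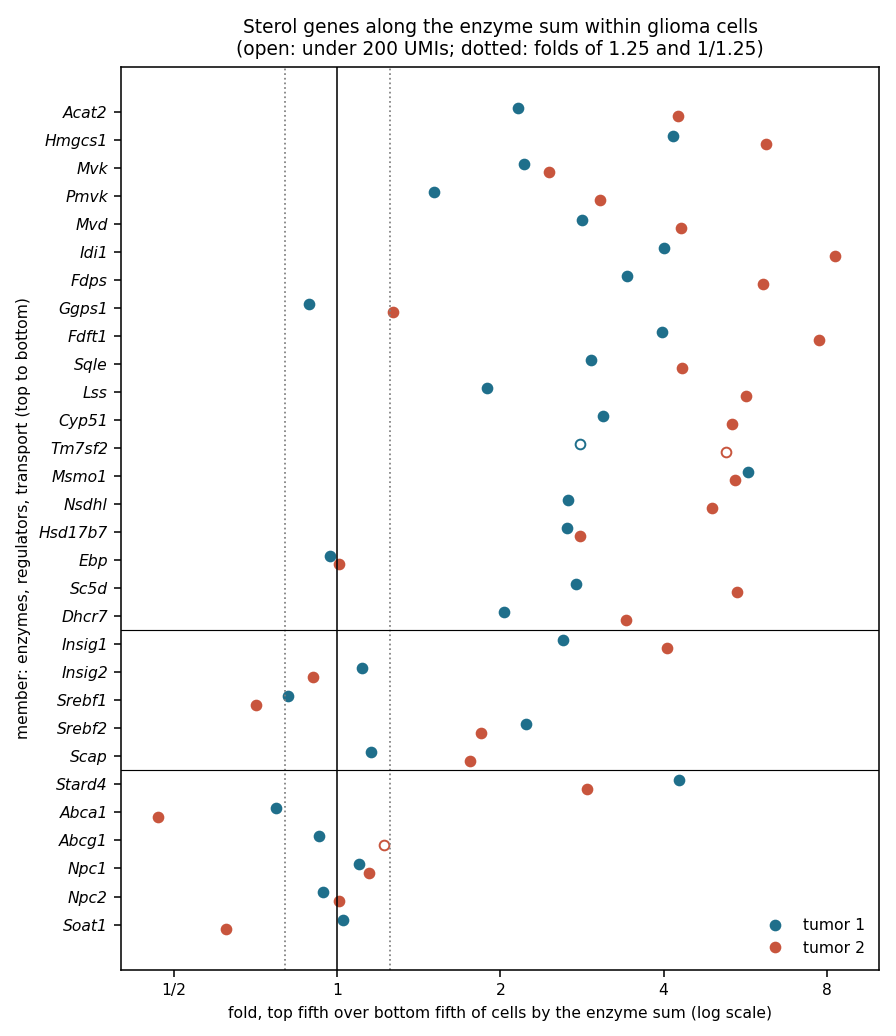
Fold of the top over the bottom 20% of glioma cells ranked by the enzyme sum without the gene itself (x axis, log scale) for each sterol gene (y axis), with open symbols under 200 UMIs and dotted lines at levels 25% higher and 20% lower. Idi1 reaches 4.01 and 8.31 in tumors 1 and 2, Ebp stays at 0.971 and 1.01, and Abca1 is at 0.771 and 0.466.

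Other measures moved along the same ranking, and their part in the folds was not tested. Median raw depth at the bottom and top was 21782.5 and 21314.5 UMIs in tumor 1 and 20205 and 21460 in tumor 2. Median EGFP was 79.6 and 76.2 UMIs per 10,000 in tumor 1 but 56.4 and 137 in tumor 2. The median mitochondrial share went from 4.89% at the bottom to 4.56% at the top in tumor 1 and from 4.55% to 3.38% in tumor 2. Depth was thus similar at both ends, while EGFP and the mitochondrial share differed in tumor 2. Summed S phase genes had folds of 1.60 and 1.17 in tumors 1 and 2, and G2 and M phase genes of 1.16 and 1.07. In cells with 0 UMIs of the cycling genes Mki67 and Top2a, the median enzyme fold was 3.36 and 5.79 and the median other gene at 1.05 and 1.03. S phase genes were no part of that filter. Interferon genes had folds of 0.863 and 1.46, hypoxia genes of 1.09 and 0.535 and progenitor genes of 1.10 and 1.95. Astroglial genes summed to 6.17 at the bottom and 9.03 at the top in tumor 1, and 5.50 and 6.88 in tumor 2. Fatty acid synthesis genes summed to folds of 1.42 and 1.56, with 10 and 11 of 11 genes above 1. Sterol handling genes summed to 0.875 and 0.654, with 8 and 10 of 20 genes above 1. Apoe made up most of the latter sum, at 21.1 and 24.3 UMIs per 10,000 at the bottom in tumors 1 and 2. The fold of that sum therefore mainly followed Apoe and does not describe the list as a whole. In the sterol handling list Tmem97, a sterol-binding membrane protein, had folds of 2.02 and 2.34 and Apoe of 0.818 and 0.574. Among genes in no list, by the smaller fold of the tumors, Emid1 (2.75 and 2.63), Meox1 (2.57 and 6.62), Car2 (2.77 and 2.54), Otos (2.49 and 3.58) and Ifitm10 (2.44 and 3.63) were near the top. By the larger fold, the lowest were Scn7a (0.0909 and 0.138), Itih5 (0.118 and 0.164) and Col20a1 (0.175 and 0.135). Apod (0.193 and 0.0915) and Col3a1 (0.207 and 0.133) came next. The ends of the ranking thus differed strongly in genes outside sterol metabolism too.

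Exons of Fdps overlap those of Gm43738, and exons of Tm7sf2 those of Vps51, on the same strand, so reads of these genes may be shared and their levels are uncertain. The enzyme sum includes both Fdps and Tm7sf2 and shares that limit.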

How the data were processed

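Single-cell 3' libraries of 2 NPCTKO tumors were analysed. The submitters' processing notes name Cell Ranger 4.0.0 and Seurat, and mm10 as the genome. The authors deposited raw UMI counts per gene and barcode, not normalized. The members and all lists were chosen with earlier results of these data known.

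Barcodes with at least 500 genes, under 20% mitochondrial and under 5% hemoglobin UMIs were kept. Glioma cells had at least 20 EGFP UMIs per 10,000, no Ptprc UMI and no other gate, and other classes needed 3 or 4 of their markers and a summed marker level. Immune and vascular classes had to lie under 20 EGFP UMIs per 10,000. Barcodes above that limit in those gates, or in gates of several lineages (191 and 242 in all), were left out as possible doublets. No doublet caller was used, and 2747 and 4715 had no class.

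UMIs were summed per class and tumor. Glioma was compared with each class by edgeR 4.0.16 (TMM, quasi-likelihood test, tumor as block, Benjamini-Hochberg adjustment over 14442 genes, 36 gate genes left out). Sums of a tumor share an animal, and their deviations correlated in all 21 pairs of classes (r from 0.119 to 0.632). The block takes out what the classes of a tumor share, so p-values measure how far differences between classes varied from tumor 1 to tumor 2, pooled over the 7 classes. Alternatives were DESeq2 1.42.0, other size factors, no TMM factors (chosen after seeing the data), no filter on low counts, no block, and other gates and cell filters. Code was tested on simulated data. Folds between tumors needed 50 UMIs, and folds within glioma 200. All 30 members are described. Of related lists up to 4 called genes were named by size of difference, and of genes in no list the 5 with the largest smaller fold along the enzyme sum that may be reported here. The 5 with the lowest larger fold were added after seeing the data. Promoters came from RefSeq (GRCm38.p6).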

Additional observations from a re-analysis of the deposited data

How the results depend on the processing

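All 77 calls of a member in a class comparison kept their direction in the fits run, and, on the TMM scale, in each tumor alone (without replicate 1, without replicate 2), where only a log2 ratio and no test is possible. On UMIs per 10,000, 2 of them, Abca1 and Npc1 against monocytes, turned in tumor 1 and 0 in tumor 2. With no TMM factors, chosen after seeing the data, 6 calls were lost. Then 22, 20 and 22 members were higher in glioma than in microglia, monocytes and T cells, beside 54.6%, 48.6% and 41.7% of all genes. Without the replicate block 16 of the 77 passed and 61 did not. Members called higher and lower were then 0 and 0 against astrocyte-like cells, 0 and 0 against oligodendrocytes, 5 and 5 against microglia, 0 and 4 against monocytes, 0 and 1 against T cells, and 1 and 0 against vascular cells. The counts over all genes stand beside these in the comparisons above. The other alternatives ended at most 7 calls each. DESeq2 called 9 members lower than in astrocyte-like cells, beside 1072 of 14442 genes. Without the cells with most UMIs 3 were lower than in vascular cells, beside 2285 of 14143 genes. The enzyme sum of tumor 2 over tumor 1 in glioma was 2.43 with stricter gates, 1.97 with a 10% mitochondrial limit, 1.97 without the cells with most UMIs and 2.35 with TMM. Among alternatives chosen after seeing the data, it was 3.02 in oligodendrocytes of low EGFP and, in glioma, 1.99 in cells with at least 5000 UMIs and 1.70 in the 2313 and 1036 cells with no UMI of Cxcl10, Ifi47 and Gbp2 (median 12259 and 2373.5 UMIs). With TMM it was 3.03 in astrocyte-like cells, 2.48 in oligodendrocytes, 1.66 in microglia, 1.73 in monocytes, 2.01 in T cells and 1.57 in vascular cells. Stricter gates gave 2.99 in astrocyte-like cells and 1.17 in microglia, and leaving out the cells with most UMIs 2.21 and 1.42. The cause was not tested. Along the enzyme sum, between 14 and 17 enzymes were at least 25% higher at the top in either tumor over the alternatives run. Between 16 and 19 enzymes had enough UMIs there, and between 8.56% and 23.6% of other genes were at least 25% higher. The monocytes of tumor 1, with 419343 UMIs in all, limit the depth most.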
